A study of Caenorhabditis elegans with 2 samples.

Results

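The nuclear genes of the mitochondrial respiratory chain and ATP synthase were examined for binding regions of the zinc finger transcription factor LSY-2 in Caenorhabditis elegans larvae. The genes were chosen by name in the Ensembl annotation of WBcel235, the assembly also called ce11. The set held every nuclear protein-coding gene whose symbol before the hyphen is nuo, cox, cyc, ucr, atp, asb, asg, sdha, sdhb, sdhd, mev or isp, or begins with ndu. This gave 69 of 19973 nuclear protein-coding genes. They were 31 genes of complex I, 5 of complex II, 7 of complex III, 2 genes of cytochrome c, 15 cox genes of complex IV and 9 of ATP synthase. The choice rests on gene symbols, so subunits with other names were counted apart, and the cox genes include assembly factors. A gene was counted as having a region when the summit, the position of highest signal in the region, lay between 1000 bp upstream and 200 bp downstream of its annotated 5′ end.

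Chromatin came from whole animals of both sexes at the L2 larval stage, of strain OP240, an unc-119(ed3) III strain with the integrated transgene wgIs240, from which an eGFP-LSY-2 fusion is made. ChIP-seq recovers DNA bound by the tagged protein and reads it by sequencing. The series has 1 group of 2 biological replicates, both of this genotype and stage, so it holds no contrast between conditions and no test over samples was possible. Whole animals were used, so a region cannot be placed in a tissue, and the control library was not analysed here. The tagged gene itself, lsy-2, had 0 thresholded summits in its promoter window, so the label could not be checked from a region at that gene.

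The respiratory chain passes electrons from NADH and succinate to oxygen along carriers of the inner mitochondrial membrane, and protons are moved across it. Complexes I and II feed ubiquinone, complex III passes the electrons to cytochrome c, complex IV reduces oxygen, and ATP synthase uses the proton gradient to make ATP. Most subunits are encoded in the nucleus, and complexes I, III, IV and ATP synthase also contain a few that are encoded in mitochondrial DNA.

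Of the 69 genes, 36 had the summit of a region in their promoter window in the authors' list thresholded on the irreproducible discovery rate (IDR), which keeps regions whose ranks agree between replicates. The 36 genes are 52.2% of the set, where 9.85% of all nuclear protein-coding genes had one. The 69 genes are all that the rule names, so no interval is given, and the difference between the shares was not tested. The thresholded list holds 2182 regions. At all 36 genes the rank in it equalled the rank in the list of both replicates together. A place in it therefore does not show that the replicates agree at that region, and at nduf-7 replicate 2 listed none in the window. Each of the 36 genes had 1 summit of the thresholded list, and no region was shared by 2 of the 36. ATP synthase had the largest share of the complexes, with 8 of 9 genes. Complex IV had 8 of 15, complex I 15 of 31, complex III 3 of 7, complex II 2 of 5 and cytochrome c 0 of 2. The complex IV count includes assembly genes, and its structural subunit genes alone had 6 of 7. These groups are small, and their shares were not tested against each other.

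The strongest of these regions lay upstream of cox-5A, ndub-8, atp-1, cox-5B and cox-14, and 4 of those 5 held the sequence TACGGTA within 50 bp of the summit. The region at cox-10, the gene for the farnesyltransferase that starts haem A synthesis, held it as well. TACGGTA is shown here at 4 of these promoters because 4 of the 5 strongest regions of the set share it, cox-5B being the exception. Of those shown, cox-10 has a weak region at rank 1455, and atp-1 also held the sequence but is not shown. The lines give 101 bases of ce11 centred on the summit, read 5′ to 3′ on the gene's strand from the RefSeq copy of the assembly, with TACGGTA or its reverse complement TACCGTA in capitals. The windows are chrIII:12905148-12905248 (+ strand) for cox-5A, chrII:13872633-13872733 (+) for ndub-8, chrIII:10218725-10218825 (+) for cox-14 and chrII:12679795-12679895 (+) for cox-10.
cox-5A: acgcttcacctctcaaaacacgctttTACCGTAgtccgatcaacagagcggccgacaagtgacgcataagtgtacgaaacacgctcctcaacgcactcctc
ndub-8: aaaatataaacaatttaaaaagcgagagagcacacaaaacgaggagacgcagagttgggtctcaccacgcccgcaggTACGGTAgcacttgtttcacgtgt
cox-14: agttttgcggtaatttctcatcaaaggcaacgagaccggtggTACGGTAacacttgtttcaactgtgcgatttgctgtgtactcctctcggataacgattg
cox-10: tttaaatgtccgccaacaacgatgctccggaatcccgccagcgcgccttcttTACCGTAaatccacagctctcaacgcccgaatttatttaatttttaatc

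A second sequence, AAACGCGC, occurred at 7 other members, ranked 263 to 1215, namely nduv-3, nduf-11, ndus-8, nuo-2, sdha-1, cyc-1 and ucr-2.2, which span complexes I, II and III. It is shown at 4 of them in the same way, with AAACGCGC or its reverse complement GCGCGTTT in capitals. The windows are chrII:11345752-11345852 (− strand) for nduf-11, chrIII:7234312-7234412 (−) for ndus-8, chrX:8546170-8546270 (−) for sdha-1 and chrX:15173651-15173751 (+) for ucr-2.2.
nduf-11: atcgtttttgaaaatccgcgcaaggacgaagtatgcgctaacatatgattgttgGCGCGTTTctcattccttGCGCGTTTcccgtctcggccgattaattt
ndus-8: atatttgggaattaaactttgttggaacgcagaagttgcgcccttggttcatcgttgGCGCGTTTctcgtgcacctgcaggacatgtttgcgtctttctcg
sdha-1: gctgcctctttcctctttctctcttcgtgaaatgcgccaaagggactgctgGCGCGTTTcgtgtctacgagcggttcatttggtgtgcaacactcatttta
ucr-2.2: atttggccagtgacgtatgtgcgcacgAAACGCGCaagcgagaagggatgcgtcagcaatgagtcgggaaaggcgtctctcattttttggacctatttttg

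Both sequences were picked after the member regions had been read, so their share among members is a description. TACGGTA was found, on either strand and within 50 bp of the summit, in 5 of 36 member regions (13.9%), and AAACGCGC in 7 of 36 (19.4%). No member region held both, 24 held neither, and 0 of the 2182 thresholded regions held both. The centre of TACGGTA lay at the summit in atp-1, 5 bp from it in cox-14 and cox-10, 21 bp in cox-5A and 30 bp in ndub-8. The 9 copies of AAACGCGC lay 4.5 to 29.5 bp from their summits, and nduv-3 and nduf-11 had 2 copies each.

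The regions away from member promoters were not used in picking these sequences. Among them TACGGTA occurred in 39 of the 95 regions of rank 1 to 100 (41.1%), in 43 of 389 of rank 101 to 500 (11.1%), in 9 of 493 of rank 501 to 1000 (1.83%) and in 24 of 1169 below (2.05%). The sequence was thus most frequent at the strongest regions, with or without a member gene. AAACGCGC occurred there in 1 of 95, 35 of 389 (9%), 31 of 493 (6.29%) and 46 of 1169 (3.93%), so it was nearly absent from the strongest regions. Among 100 bp windows from 200 to 101 bp upstream of all 19973 genes, 1.66% held TACGGTA and 0.616% held AAACGCGC. These are matches of letters, and no assay here tests whether a protein reads them.

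The signal of a region is the caller's value in the authors' deposited lists; it carries no read count, so depth is unknown, and it is not scaled between replicates. For the mean over replicates it was therefore divided by each replicate's median over the thresholded regions, which was 49.3 in replicate 1 and 35.7 in replicate 2. Ranks are by signal, within each list. The median signal at the 36 promoters, in the list made from both replicates together, was 131.918 against 99.761 over all genes with a thresholded summit, a ratio of 1.32, and 22 of the 36 lay above that value. The members therefore ranged from the head of the list to its end, with 5 genes among the 100 regions of highest signal and the lowest at rank 2049.

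**Figure D1:**
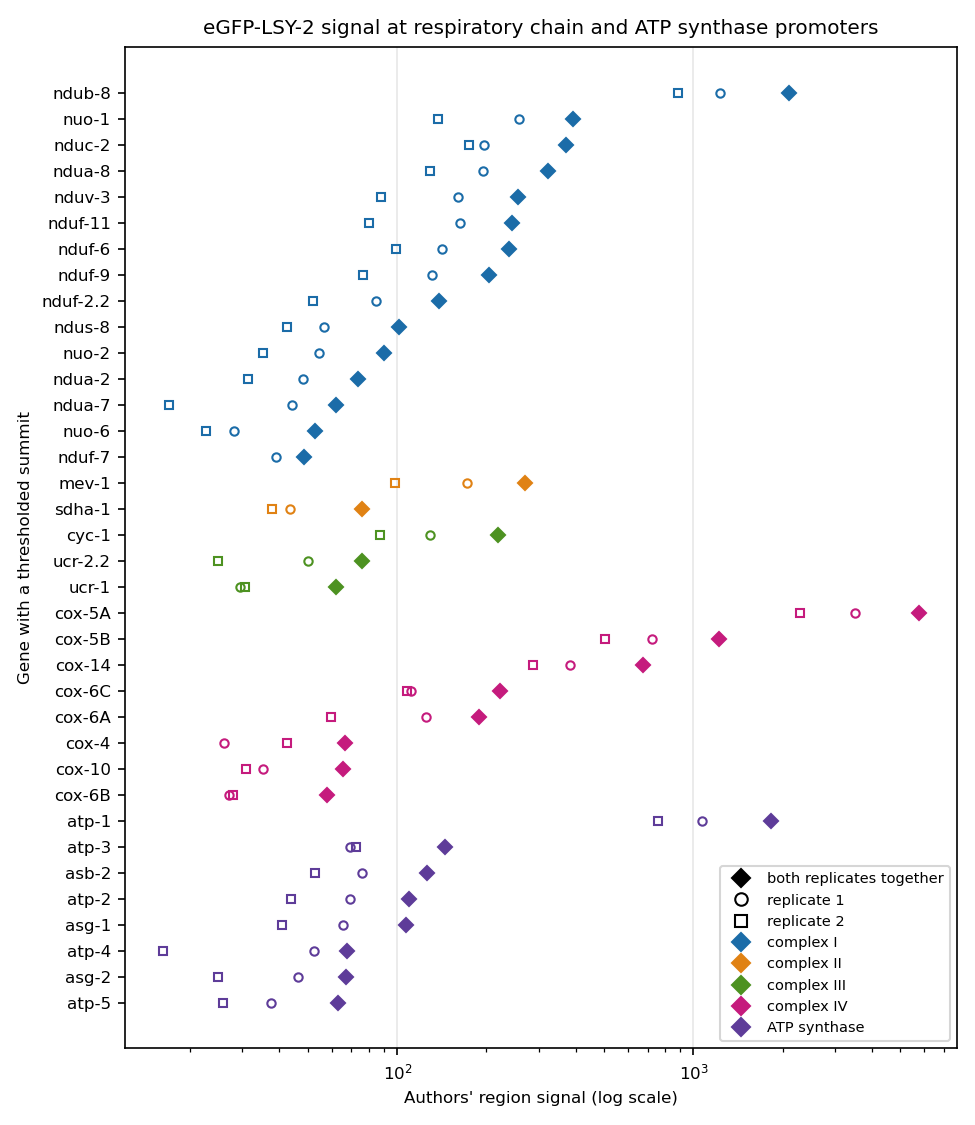
Signal of the region at each of the 36 promoters (log scale, authors' units), ordered by signal within each complex; diamonds are both replicates together, open circles replicate 1 and open squares replicate 2, and nduf-7 has no listed replicate 2 region. Complex IV spans 57.8 to 5786, while ATP synthase has atp-1 at 1829 and its other 7 genes between 62.9 and 144.

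Complex IV, cytochrome c oxidase, held the strongest region of the set. The gene cox-5A (WBGene00012553, chromosome III, 12905491 to 12906619, + strand) encodes a structural subunit of the enzyme. Its summit lay 293 bp upstream of the 5′ end in intergenic sequence, within no other gene's window. The signal was 3523 in replicate 1 and 2292 in replicate 2, and 5786 for both together. It ranked 3 in each of the 3 lists, and its scaled signal was 67.8 ± 5.09 times the median thresholded region (SD, n = 2). The next strongest member, ndub-8, had 2110.4 for both together.

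A second structural subunit gene, cox-5B (WBGene00000371, chromosome I, 9788725 to 9790050, + strand), had its summit 45 bp upstream, again shared with no other gene. The signal was 723 in replicate 1 and 503 in replicate 2, which gives 14.4 ± 0.393 times the median (SD, n = 2). Its ranks were 28 and 31, so both replicates placed it among their strongest 100 regions. At cox-14, named in RefSeq as cytochrome c oxidase assembly factor 3, the signal was 384 and 287, or 7.91 ± 0.172 times the median (SD, n = 2), with ranks 73 and 64. That summit lay 167 bp upstream of cox-14 and 129 bp upstream of rde-4, a gene of the RNA interference pathway on the other strand, so it cannot be given to either gene alone.

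Of the 7 structural subunit genes of complex IV, 6 had a region, cox-7C being without one. The others were cox-6C with a signal of 222, cox-6A with 188, cox-4 with 66.7 and cox-6B with 57.8. Among the 8 other cox genes, only cox-14 and cox-10, at 65.5, had one. The copper chaperone gene cox-17 and the assembly genes cox-11, cox-15, cox-16, cox-18 and cox-19 had none, so 6 of 7 structural and 2 of 8 other cox genes were counted. All of those without one but cox-16 have a same-strand gene overlapping or ending within 500 bp upstream, and no structural subunit gene does. The kind of cox gene and this position therefore largely coincide and cannot be told apart here.

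The count at cox-6B depends on which start is used. The gene is annotated over 87197 bp, and its counted summit lies 753 bp upstream of the far 5′ end and 93 bp from that of slc-30A9, a zinc transporter family gene. A second transcript start of cox-6B lies at 2786202, and a stronger summit with a signal of 371 (196 in replicate 1 and 174 in replicate 2) lies 154 bp upstream of it. That same region is the one counted for nduc-2, 804 bp upstream of nduc-2 in an intron, and its nearest gene 5′ end is that of Y71H2AM.20 at 100 bp.

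In complex I, which oxidises NADH, 15 of 31 genes had a region, and 8 of those were among the 500 strongest regions. The strongest was at ndub-8 (WBGene00013094, chromosome II, 13872869 to 13875312, + strand), which encodes an accessory subunit of the membrane arm. The signal was 1228 in replicate 1 and 889 in replicate 2, with ranks 17 and 15. Scaled, the replicates were nearly equal, at 24.9 ± 0.00872 times the median (SD, n = 2). The summit lay 186 bp upstream of ndub-8 and 442 bp upstream of cup-14 on the other strand.

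The next complex I genes were far weaker, with none above 392 for both replicates together. At nuo-1, the NADH-binding flavoprotein subunit, the signal was 257 and 137, or 4.53 ± 0.97 times the median (SD, n = 2), and the summit lay 302 bp upstream, with the 5′ end of the ribosomal protein gene rpl-36.A 331 bp away on the other side. At nduc-2, subunit C2, the signal was 196 and 174, or 4.43 ± 0.636 (SD, n = 2). Replicate 1 was thus the higher at nuo-1 by more than its scale, while at nduc-2 the scaled order was the opposite.

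At ndua-8 the signal was 195 and 129, or 3.78 ± 0.243 times the median (SD, n = 2), and the summit lay 237 bp from ndua-8 but 137 bp from rbc-2. At nduv-3 it was 161 and 88.3, or 2.87 ± 0.555 (SD, n = 2), with the summit 161 bp from nduv-3 and 24 bp from mdf-2, a spindle checkpoint gene. Both of these summits were nearer to the other gene. The remaining complex I genes with a region were nduf-11 (signal 245), nduf-6 (237), nduf-9 (204), nduf-2.2 (138), ndus-8 (101), nuo-2 (90.3), ndua-2 (73.8), ndua-7 (62.2), nuo-6 (52.9) and nduf-7 (48.4).

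The catalytic core is made of the subunits that carry flavin and iron-sulphur clusters or line the ubiquinone path. Of its 7 genes in the set, 5 had a region, namely nuo-1, nuo-2, nduf-2.2, nduf-7 and ndus-8. The core genes nuo-5 and nduv-2 had none. The rule leaves out gas-1, a close relative of nduf-2.2 named in RefSeq as NADH dehydrogenase iron-sulphur protein 2, and gas-1 had none either. Among the other 24 complex I genes 10 had one, and 7 of those 10 were among the 500 strongest regions against 1 of the 5 core genes. This split was made after the values were seen.

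The complex II gene with the strongest region was mev-1, which encodes the cytochrome b560 subunit of succinate dehydrogenase and is known in the worm from a mutant sensitive to oxidative stress. Its signal was 173 in replicate 1 and 98.1 in replicate 2, or 3.12 ± 0.53 times the median (SD, n = 2). The summit lay 133 bp from mev-1 and 126 bp from jmjd-4 on the other strand. The flavoprotein gene sdha-1 had a signal of 43.4 and 37.7, or 0.968 ± 0.124 times the median (SD, n = 2). In complex III, cyc-1, the cytochrome c1 gene, had 129 and 87.5, ucr-2.2 had 49.8 and 24.8, and ucr-1 had 29.4 and 30.5. The Rieske iron-sulphur gene isp-1 was not in the thresholded list, and neither were ucr-2.1, ucr-2.3 and ucr-11.

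By the symbols used, ATP synthase was the most completely covered complex, at 88.9%. The structural subunit genes of complex IV alone were close to it, at 85.7%. Both shares depend on how summits are assigned. By nearest 5′ end within 5000 bp, ATP synthase had 6 genes, and the structural subunit genes cox-6B and cox-6C were not counted. Of the 9 ATP synthase members only atp-1 had a region among the 100 strongest. At atp-1 (WBGene00010419, chromosome I, 12652277 to 12654655, + strand), which encodes the catalytic head's alpha subunit, the signal was 1071 in replicate 1 and 760.2 in replicate 2, or 21.5 ± 0.299 times the median (SD, n = 2). Its ranks were 19 and 20 and its summit lay 3 bp upstream of the 5′ end, the closest of all members, and 187 bp from mcrs-1. The catalytic beta subunit, atp-2, had a signal of 69 in replicate 1 and 43.6 in replicate 2, or 1.31 ± 0.125 times the median (SD, n = 2). The genes of the 2 subunits that alternate in the head thus differed by far more than the spread between replicates.

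The other ATP synthase members with a region were atp-3 (signal 144), asb-2 (126), asg-1 (107), atp-4 (67.9), asg-2 (67.2) and atp-5 (62.9). The median over the 8 genes was 108.404, against 204.144 in complex I, and of these 8 only atp-1 was among the 500 strongest regions. At atp-4 the replicates were far apart, with 52.4 at rank 1009 in replicate 1 and 16.2 at rank 3302 in replicate 2, and its summit lay in an annotated UTR 510 bp upstream. Symbols outside the rule add 6 more ATP synthase subunit genes, Y82E9BR.3, Y69A2AR.18, R04F11.2, R53.4, F58F12.1 and hpo-18, and all 6 had a region. The c subunit gene Y82E9BR.3 had a signal of 1087 at rank 37, the gamma subunit gene Y69A2AR.18 had 583 at rank 91, and the subunit e gene R04F11.2 had 555 at rank 98. Of these 15 genes 14 were therefore counted, asb-1 being the exception, with 9.85% over all genes. Among the 100 strongest regions there were 4, with 0.711% over all genes. The 6 added genes were listed with earlier results of these data known. Another gene's 5′ end was nearer to the summit at Y69A2AR.18 (ccdc-12, 154 bp), R53.4 (psf-1, 149 bp) and hpo-18 (mcm-7, 173 bp).

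**Figure D2:**
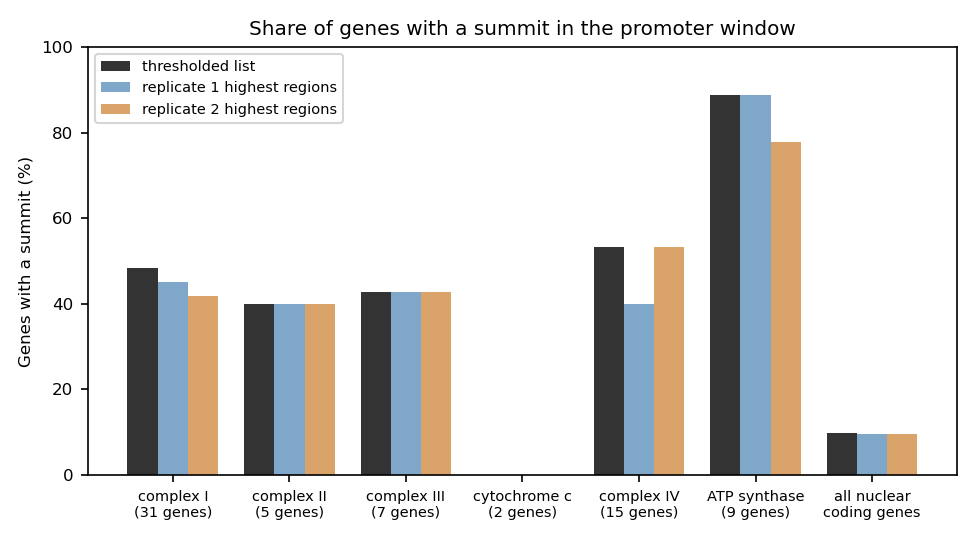
Share of genes in each complex with a summit in the promoter window (%, axis from 0), in the thresholded list and among as many regions of highest signal of each replicate's own list. The ATP synthase share is 88.9% in the thresholded list, and the share over all nuclear coding genes lies between 9.62 and 9.85%.

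Paralogs within the set differed in several cases. The proteins of asb-1 and asb-2, the b subunit in the stalk of ATP synthase, are 72.1% identical over the shorter one. At asb-2 the signal was 75.7 and 52.7, or 1.51 ± 0.0415 times the median (SD, n = 2), whereas neither replicate listed any region in the window of asb-1. The gene asb-1 is known as a germline form. It also has a same-strand gene, sel-2, overlapping or ending within 500 bp upstream, and asb-2 has none so placed. The part of either in this difference was not tested. The 2 g subunit genes, asg-1 and asg-2, with 76.3% identity, both had a region. At asg-1 the signal was 65.4 in replicate 1 and 40.9 in replicate 2, or 1.24 ± 0.126 times the median (SD, n = 2), and at asg-2 it was 46.2 and 24.9, or 0.817 ± 0.17 (SD, n = 2). The asg-1 summit lay 33 bp from the mitochondrial ribosomal gene mrps-15 and 291 bp from asg-1.

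The cytochrome c genes cyc-2.1 and cyc-2.2, with 82% identity, had no thresholded summit in their windows. At cyc-2.1 this depends on the window, since a summit with a signal of 97.7 (54.1 and 50.8 in the replicates) lies 392 bp downstream of its 5′ end. The strongest region of the whole list, with a signal of 6690.1, lies 1053 bp upstream of cyc-2.1, between rpl-20 and Y17G9B.5. Of the 3 ucr-2 genes, whose proteins share 36.3 to 39.6% of residues, only ucr-2.2 had a region. In 2 further pairs, added beyond the planned ones, sdha-1 had a region and sdha-2 did not (80.6% identity), and nduf-2.2 had one and its close relative gas-1 did not (92.8%). At nduf-2.2 the signal was 84.5 in replicate 1 and 51.9 in replicate 2, or 1.58 ± 0.183 times the median (SD, n = 2). Its summit lay 828 bp upstream and only 615 bp from dlc-1 on the other strand. With a window of 500 bp upstream, or by nearest 5′ end, nduf-2.2 was not counted, so its difference from gas-1 is uncertain.

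In each replicate alone, the 2182 regions of highest signal gave nearly the same members. Replicate 1 counted 33 of the 69 genes and replicate 2 also 33 (47.8% each), where 9.62% of all genes were counted in either. Replicate 1 lacked cox-4, cox-6B and nuo-6, and replicate 2 lacked atp-4, ndua-7 and nduf-7. None of the 33 genes outside the thresholded list was counted by either replicate. Regions high in both replicates at once covered 30 members (43.5%), with 8.09% over all genes. The 6 genes lost here are all at rank 1393 or lower in the thresholded list. Loss means falling below rank 2182 in a replicate, which mainly regions near that cut can do. The loss therefore does not show where the replicates differ.

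Over the 35 promoters with a region in both replicates, log10 signal had a Pearson correlation of 0.965 and a Spearman correlation of 0.915, as a description across genes that share the same 2 libraries. Replicate 1 was higher in 31 of 35, with a median ratio of 1.48, close to the 1.38 between the medians of the lists. The ratio ranged from 0.614 at cox-4 to 3.24 at atp-4. The SD of its log2 was 0.28 over the 16 genes of rank up to 500 and 0.55 over the 19 below, so strong regions were the more repeatable. Summits moved by a median of 4.5 bp in replicate 1 and 6 bp in replicate 2 from those of the joint list.

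**Figure D3:**
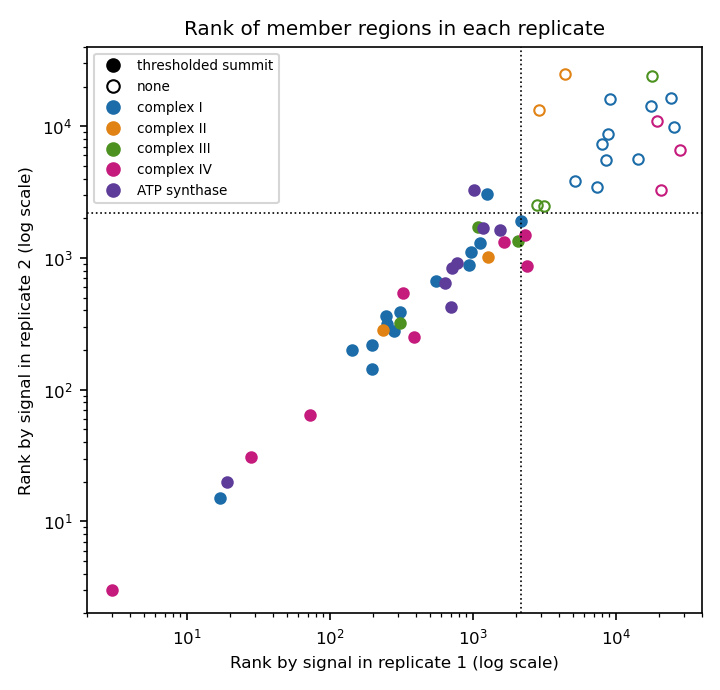
Rank by signal in replicate 1 and in replicate 2 (log scales, low ranks are strong) of the strongest region in each gene's window; filled points have a thresholded summit, open points do not, and dotted lines mark rank 2182. The filled points follow the diagonal from cox-5A at rank 3, and no open point lies inside either dotted line.

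The 33 genes without a thresholded summit were not all alike. Both replicates listed a region in 18 of the windows, 1 replicate did in 8, and 7 had none. These lists include background regions, so a listing alone says little. The nearest to the threshold was isp-1, at ranks 2795 and 2504 and at rank 2263 of the joint list with a signal of 44.6, where the lowest thresholded region had 45.8. By joint signal ucr-2.1 (42.6), ndub-7 (36.7), cyc-2.1 (34.6) and sdhd-1 (33.5) followed. The replicates differed at the last 2 of these, since sdhd-1 was at rank 2899 in replicate 1 and 13239 in replicate 2, and for cyc-2.1 replicate 1 listed no region. By mean rank over the replicates, the order after isp-1 was ucr-2.1 at 3148 and 2500, ndub-7 at 5195 and 3870, ndua-5 at 7383 and 3443, and ndua-1 at 8460 and 5511. Just inside the threshold stood nduf-7 at 48.4 and nuo-6 at 52.9. For nduf-7 replicate 2 listed no region in the window.

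The other genes without one in complex I were ndua-12, ndua-13, ndub-2, ndub-3, ndub-5, ndub-6, ndub-10, ndub-11, nduf-5, nuo-3 and nuo-4, besides nuo-5 and nduv-2. In complex II they were sdha-2, sdhb-1, the iron-sulphur subunit gene, and sdhd-1. At ndub-10 a region of signal 429 lies just beyond the window, 1259 bp upstream and 46 bp from nlp-4, and at ucr-11 one of 136 lies 1334 bp upstream, 16 bp from tre-1. Those 2 regions are thus far nearer to the other gene.

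The members' share depends on how far down the list one reads, and it exceeded that of all genes at each length. Among the 100 regions of highest signal in the joint list 5 members were counted (7.25%), with 0.711% over all genes. Among 500 there were 16 (23.2%, with 3.1% over all genes), and among 1000 there were 23 (33.3%, with 5.51%). The upper 50% of thresholded regions also gave 23, with 5.9% over all genes. Among 5000 there were 41 (59.4%, with 15.5%), and among all 30000 there were 58 (84.1%, with 38.8%). The list lengths were chosen after the values were seen.

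**Figure D4:**
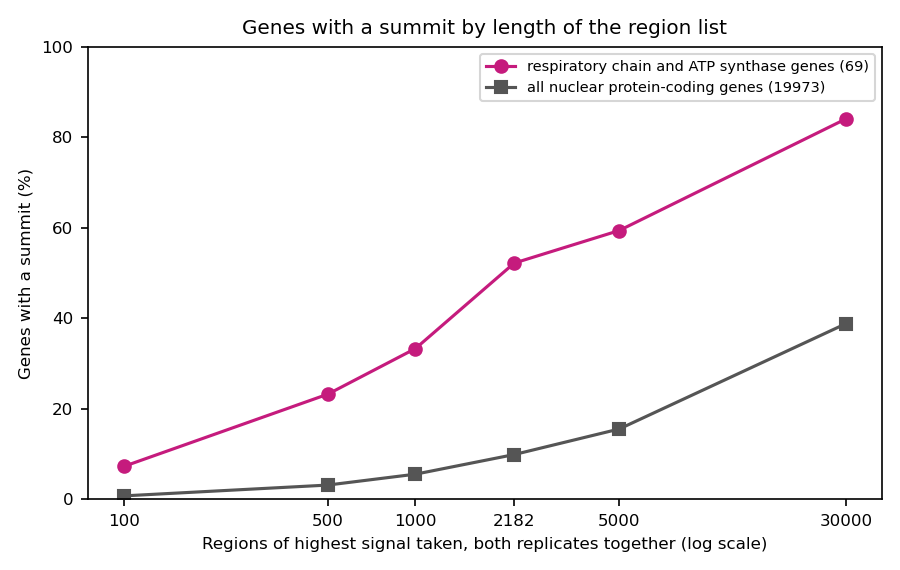
Share of the 69 genes and of all 19973 nuclear protein-coding genes with a summit in the window (%, axis from 0) against the number of regions of highest signal taken from the joint list (log scale). The members' line lies above the other at every length, from 7.25% against 0.711% at 100 regions to 84.1% against 38.8% at 30000.

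All 36 summits lay upstream of the member's 5′ end, by 3 to 828 bp with a median of 239 bp, where the median over all genes with a summit was 225 bp. The middle 50% of members lay between 154.5 and 308.75 bp, and of all genes between 129 and 388.25 bp. The summit was intergenic at 33 genes, in a UTR at 2 and in an intron at 1. For these placements, and for lying upstream, no share over all genes is given here, so they are no trait of the members. For 29 genes it lay within 400 bp. A window from 500 bp upstream to 100 bp downstream counted 31 members (8.11% of all genes), one from 2000 bp upstream 39 (12.4%), any annotated transcript start 37 (10.4%) and the nearest 5′ end within 5000 bp 27 (9.5%). The 7 genes with a summit beyond 400 bp were nduf-2.2 (828 bp), nduc-2 (804), cox-6A (787), cox-6B (753), atp-4 (510), cox-4 (467) and cox-6C (419).

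By chromosome, 12 of 16 members on III had a summit (16.4% of all genes there), 5 of 11 on II (10%), 4 of 5 on X (5.49%), 2 of 11 on IV (9.42%) and 2 of 7 on V (5.61%). Chromosome I had 11 of 19 (15.6%). The 4 genes on X were sdha-1, ucr-2.2, asb-2 and asg-2, all at 0.817 to 1.51 times the median signal. So the members on X were mostly counted but none was among the strong ones.

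Many of these regions sit between 2 genes. For 21 of the 36 the summit also lay in the window of another protein-coding gene, and at all 21 at least 1 of those genes is on the other strand. The other 15, among them cox-5A, cox-5B, nduf-11, cyc-1, asb-2 and sdha-1, were in no other window. In 26 cases the member's own 5′ end was the nearest one, and in 10 another gene was nearer. Those 10 were cox-14, nduc-2, ndua-8, mev-1, nduv-3, cox-6C, nduf-2.2, asg-1, atp-5 and cox-6B. ChIP-seq cannot say which of 2 such genes a region belongs to. The matching shares over all genes with a summit are not given here, so these counts do not mark the members out from other genes.

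**Figure D5:**
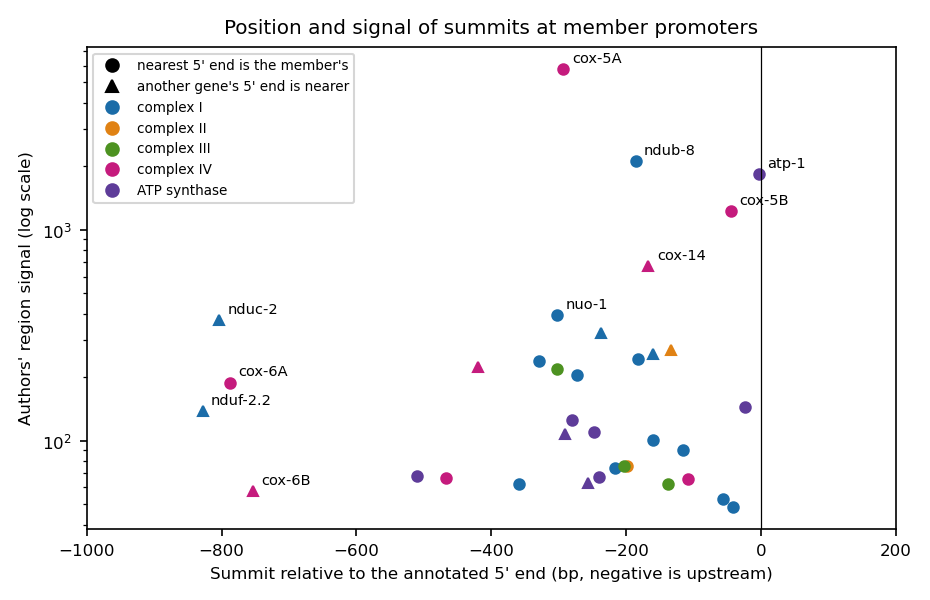
Distance of each of the 36 summits from the member's 5′ end (bp, negative is upstream) against its signal (log scale); circles are summits nearest to the member, triangles summits nearer to another gene. The 4 strongest lie within 293 bp and are nearest to the member, and none lies downstream.

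Members with an immediate upstream neighbour on the same strand had a summit less often as a whole, but not in every complex. Of the 22 members with a same-strand gene overlapping or ending within 500 bp upstream, a position found inside operons too, 8 had a summit (36.4%), with 6.85% over all genes so placed. Of the other 47, 28 had one (59.6%), with 10.6% over all such genes. In complex IV the counts were 0 of 5 against 8 of 10, and none of those 5 is a structural subunit gene. In ATP synthase they were 1 of 2 against 7 of 7, while in complex I they were 4 of 9 and 11 of 22. The order was the opposite in complex III, with 2 of 3 against 1 of 4, and in complex II the counts were 1 of 2 against 1 of 3. This division was chosen after the values were seen.

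Motifs known from other promoters were searched at the member summits. Within 50 bp, on either strand, 1 of 36 held GCGCATGC, the core of the site of mammalian NRF-1, a regulator of respiratory genes (0.687% of all thresholded regions), and 0 held CCGGAAG, an ETS site of the kind read by mammalian GABP (0.321%). The GC box CCGCCC was at 4 (11.1%, with 5.73% of all regions), the E-box CACGTG at 1 (2.8% of all) and the cyclic AMP response element TGACGTCA at 0 (0.871%). Within 100 bp of the summit the GC box was at 9 of 36 (25%, with 9.49% of all regions). The worm promoter motif TGCGTCTC was at 3, ndub-8, ucr-1 and asb-2 (8.33%, with 9.85% of all thresholded regions and 1.38% of upstream windows). It is shown in capitals at the other 2 of these, at chrIII:5591947-5592047 (+ strand) for ucr-1 and chrX:4469436-4469536 (+) for asb-2.
ucr-1: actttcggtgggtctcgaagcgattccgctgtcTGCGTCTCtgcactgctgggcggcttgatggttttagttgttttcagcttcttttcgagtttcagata
asb-2: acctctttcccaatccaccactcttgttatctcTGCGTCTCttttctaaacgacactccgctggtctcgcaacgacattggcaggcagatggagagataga

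The 3 6-mers most concentrated at summits, picked on regions away from member promoters, were GAGAGA, its overlapping shift AGAGAG, and the distinct word GACGCA. The last lies inside the reverse complement of TGCGTCTC. At member summits GAGAGA was in 5 of 36 (13.9%, with 25.2% of all thresholded regions), AGAGAG in 6 (16.7%, with 21.7%) and GACGCA in 7 (19.4%, with 17.6%). In windows of the same width 300 bp to each side, GACGCA was in 0 member regions and in 2.34% of all. The G and C content of the 100 bp at the summit had a median of 50% at members and 47% over all thresholded regions, and 35.25 and 35% in the flanks. The part of base composition in these shares was not tested.

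The wider pathway was read with the same window, from lists written with earlier results of these data known. Over all nuclear protein-coding genes the share with a summit was 9.85%. Among 13 genes with other symbols, for subunits and for the ATPase inhibitors mai-1 and mai-2, 8 had a region, and without the inhibitor genes 7 of 11. The strongest were at T27E9.2 (signal 1779), Y82E9BR.3 (1087), Y69A2AR.18 (583) and R04F11.2 (555). The T27E9.2 summit lay 59 bp from ant-1.1, an adenine nucleotide translocator gene, which was the nearest. The Y69A2AR.18 summit lay 407 bp from that gene and 154 bp from ccdc-12. The 5 without one were gas-1, lpd-5, T02H6.11, F45H10.2 and mai-1. Of 5 assembly factor genes 2 had one, sco-1 (396), for copper delivery to complex IV, and nuaf-1 (50.03). Of 8 genes of ubiquinone synthesis 0 had one, a list too short to tell this from the 9.85% over all genes.

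The citric acid cycle with pyruvate dehydrogenase, which supplies NADH and succinate to the chain, had 9 of 18 (50%, with 9.85% over all genes). The strongest were dld-1 (387), aco-2 (232), pdhb-1 (154) and idhb-1 (116). The aco-2 summit lay 346 bp from aco-2 but 15 bp from eef-1B.1, and the pdhb-1 summit 377 bp from pdhb-1 but 64 bp from dyf-3. The mitochondrial ribosome had 28 of 70 (40%), led by mrps-28 (471), mrps-7 (330), mrpl-28 (318) and mrpl-35 (221). At mrps-28 and mrpl-35 another gene's 5′ end was nearer to the summit. The cytosolic ribosome had 67 of 78 (85.9%) with a median signal of 300.06, so it was covered more densely and at higher signal than the respiratory genes as a whole. The ATP synthase share was close to the ribosomal one, on 9 genes.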

How the data were processed

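The data are region lists of 2 biological replicates of eGFP-LSY-2 ChIP-seq in L2 larvae. The authors deposited, on ce10 and ce11, 30000 regions for each replicate and for both together, and a list thresholded by IDR, per the file headers and the deposited lists of files. The ce11 lists were used. The signal of a region is the value deposited by the authors; the aligner, the caller and the scaling against the control were not given in the sources used here. Depth is unknown, so no interval for signal was possible. Genes came from Ensembl release 115, sequence and product names from the RefSeq copy of the same assembly. A summit was counted for every gene whose window held it. Protein identity came from global alignment (gap opening 11, extension 1). Members and lists were chosen with earlier results of these data known. All members with a thresholded summit are named, with replicate values for the 10 strongest and the paralogs; from each pathway list up to 4 are named. Python 3.11.15, numpy 2.4.6, scipy 1.17.1, biopython 1.88 and matplotlib 3.10.9 were used. The assignment of summits was tested on simulated regions.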

Additional observations from a re-analysis of the deposited data

How the results depend on the processing

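The count of 36 members (9.85% of all genes) was 31 with a window of 500 bp upstream to 100 bp downstream (8.11%), 39 with 2000 bp upstream (12.4%), 37 from any annotated transcript start (10.4%) and 27 by the nearest 5′ end within 5000 bp (9.5%). It was 33 without either replicate. The upper 50% of regions gave 23, and lists of 100, 500, 1000 and 30000 regions gave 5, 16, 23 and 58. By nearest 5′ end, complex I had 11 genes, complex II 1, cytochrome c 1, complex IV 5, ATP synthase 6, the other subunits 4 and the cytosolic ribosome 42. The structural subunit genes cox-6B and cox-6C were lost there. With the window of 500 bp upstream to 100 bp downstream ATP synthase had 7, and cox-6A and cox-6B were lost. In the upper 50%, complex II had 1, complex III 1, complex IV 5, ATP synthase 5, assembly factors 1 and the other subunits 5. Cytochrome c had 1 with 2000 bp upstream or any transcript start, and ubiquinone synthesis had 1 with any transcript start. Leaving out a replicate gave 1 to 2 assembly factor genes, a member median over the median of thresholded regions of 1.48 to 1.54 (1.58 with both) and a median position of 238 to 254 bp upstream. Of the alternative values, 88 stayed within the limits set for counts and signals and 23 moved. The limits for counts were wide. Within them fell 27 members for 36 by nearest 5′ end. In the upper 50% of regions, so did 19 mitochondrial ribosome genes for 28 and 6 citric acid cycle genes for 9. A signal ratio of 1.54 for 1.58 counted as moved. The tally is therefore no measure of stability, and the cause of the changes was not tested. No paired analysis was possible because the series has 1 group. With 2 replicates and no depth, weak regions near the threshold are the least certain.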
